A study of Mus musculus with 22 samples.

Results

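The cells described here are the 13 developing retinal ganglion cells of a set of 22 single mouse retinal cells, split by their own signal for Pou4f1. A cell was called Pou4f1-positive at a signal of 1000 or more on 1 of its 2 probe sets, which gave 7 Pou4f1-positive and 6 Pou4f1-negative ganglion cells. The Pou4f1-positive cells were F3 of E12.5, A3 of E13.5, D8 of E14.5, B5 of E15.5 and A3, C6 and F1 of P0, the day of birth. The Pou4f1-negative cells were E4 and F6 of E12.5, E1 of E14.5, B1 and C7 of E15.5 and A6 of P0. Both kinds were therefore present at 4 stages, and E13.5 held a single Pou4f1-positive cell. All 13 were untreated, and the CD1 strain was given in the labels for 2 of the 7 Pou4f1-positive cells and 4 of the 6 Pou4f1-negative cells. Each cell was picked from a papain-dissociated retina, its polyadenylated RNA was amplified by 35 cycles of PCR, and the product was hybridised to its own Affymetrix expression array. The ganglion identity was assigned by the study after profiling. No label names the animal a cell came from, so p-values measure only the spread between these samples, which may share animals. In the main fit that spread, and so each SE, was taken from a trend over genes of similar mean signal and not from the gene alone.

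Pou4f1, also called Brn3a, is a POU-homeodomain transcription factor. Its relatives Pou4f2 (Brn3b) and Pou4f3 (Brn3c) bind the same AT-rich sites. In the mouse retina the bHLH factor Atoh7 makes progenitors competent to form ganglion cells, Pou4f2 and Isl1 follow in newborn ganglion cells, and Pou4f1 and Pou4f3 then appear in subsets of them. In the adult mouse retina most ganglion cells carry Brn3a, while most of those that contain the photopigment melanopsin (Opn4) lack it. Pou4f2 was not analysed here, and Pou4f3 is described below.

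Signal is the MAS5 intensity of a probe set, scaled so that every one of the 13 arrays had the same 2% trimmed mean of 500. A gene is called detected in a cell at a signal of 1000 or more. For differences, signals were raised to a floor of 200 (7.64 on the log2 scale) and log2 transformed. Differences are given as Pou4f1-positive minus Pou4f1-negative, and a value against a class at the floor depends on that floor.

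The Pou4f1 signal chose the classes and is given as a description. Among Pou4f1-positive cells it was 20757 in F3 of E12.5, 10371 in A3 of E13.5, 2092 in D8 of E14.5 and 2480 in B5 of E15.5, and at P0 it was 18792 in A3, 35262 in C6 and 8864 in F1. Among Pou4f1-negative cells it was 14.6 in E4 and 571.5 in F6 of E12.5, 64.2 in E1 of E14.5, 33.2 in B1 and 95.0 in C7 of E15.5 and 274.7 in A6 of P0. The cells nearest to the threshold were D8 of E14.5 inside it and F6 of E12.5 outside it. The other probe set of Pou4f1 divided the cells the same way except for A3 of E13.5, at 837. Of the 9 amacrine cells and photoreceptors of the series, the adult rod had a Pou4f1 signal of 1338 and the other 8 lay at 169.0 or below.

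**Figure D1:**
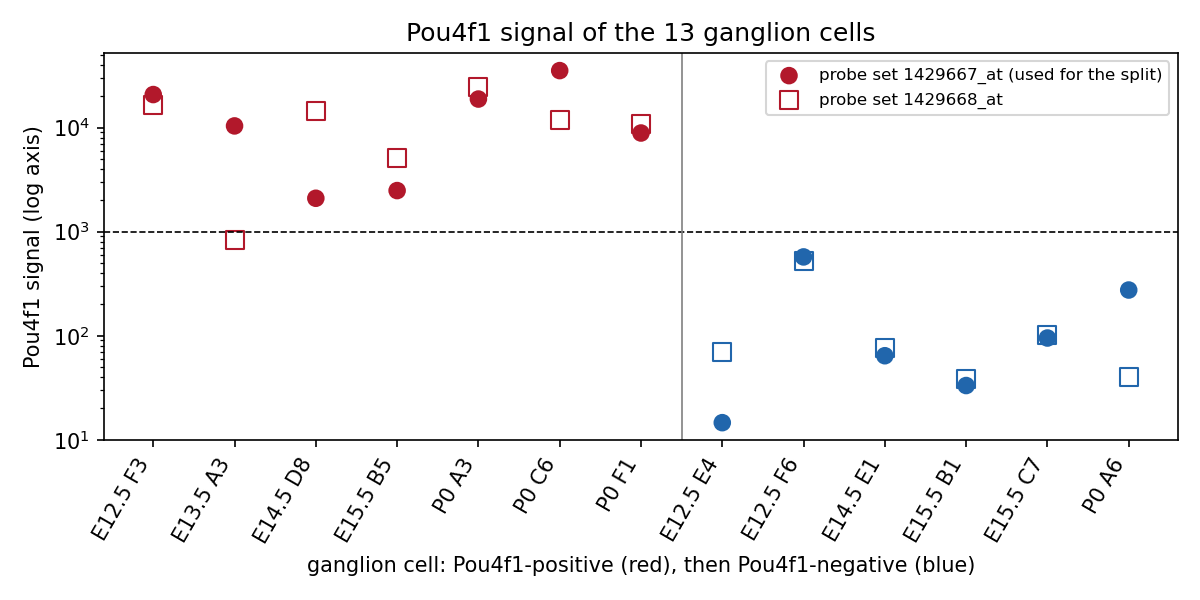
Pou4f1 signal (vertical log axis, MAS5 units) of each of the 13 ganglion cells, Pou4f1-positive cells in red and then Pou4f1-negative cells in blue. Filled points show the probe set that set the classes and open squares the other one, and the dashed line marks the threshold of 1000. The lowest red filled point is at 2092 and the highest blue one at 571.5.

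For description, 20 measured markers of ganglion cells were counted in each cell. The study gave the ganglion label after profiling, so these counts do not test it. Amacrine cells and photoreceptors were not counted on the same markers. Between 12 and 17 of them were detected in each Pou4f1-positive cell, and between 10 and 15 in each Pou4f1-negative cell. The amacrine markers Tfap2a, Tfap2b and Gad1 stayed below 1000 in all 13 cells, but other genes of the list of 15 amacrine markers did not. Pax6 was detected in 7 of 7 Pou4f1-positive and 6 of 6 Pou4f1-negative cells and Tcf4 in 4 of 7 and 3 of 6. Barhl2 was detected in 3 of 7 and 1 of 6 cells and Meis2 in 4 of 7 and 0 of 6. The depth of the profiles was similar but not equal. Pou4f1-positive cells held 2492 to 4379 detected genes with a median of 3129, and Pou4f1-negative cells 1543 to 4151 with a median of 2586.5. Lens and globin transcripts were present in some embryonic cells of both classes. Of 14 lens and pigment epithelium genes, 6 were detected in the Pou4f1-positive cell of E14.5 and 8 in the Pou4f1-negative cell of E14.5, and in no other cell was more than 1 detected.

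A pair of Pou4f1-negative cells stood apart and are referred to by name below. Cell E1 of E14.5 had 16 of 22 progenitor and cell cycle genes detected, against 1 to 10 in the other 12 cells, and was the only cell with the proliferation marker Mki67 (8637). Cell A6 of P0, the only Pou4f1-negative cell of that stage, had 10 of 20 ganglion markers and 6 of 37 ganglion cell transcription factors detected, the lowest number of each. Leaving out A6 moved the differences of more named genes by over 1.5 times than leaving out any other cell did. Values without a single cell are given beside some of the genes they moved.

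No gene passed the test between the classes, from which Pou4f1 itself was left out. Cells of a stage and class were averaged into 5 Pou4f1-positive and 4 Pou4f1-negative samples. Of 5622 genes tested with limma, 0 had an adjusted p under 0.05 (0.0%), and the lowest adjusted p was 0.9995. At an unadjusted p under 0.05 there were 146 genes (2.6%), 87 of them higher in Pou4f1-positive cells (1.55%) and 59 lower (1.05%). In the fit that let each gene keep its own variance, 3 genes passed (0.0534%), namely Slc6a8, Prkaa2 and Gdap1. For Slc6a8 and Prkaa2 all 6 Pou4f1-negative cells lay at the floor, and for Gdap1 5 of the 6 did. With the floor, that class had little or no spread, which lowers the SE in this fit. In fits that kept the cells as units with stage as a block, or used no filter on low signals, no gene passed either. All differences that follow are therefore descriptions of these 13 cells.

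Only a few genes separated every Pou4f1-positive from every Pou4f1-negative cell. The signals of the classes did not overlap for 4 genes higher in Pou4f1-positive cells (0.0711% of those tested) and for 0 genes lower in them (0.0%). These 4 were Slc6a8, the creatine transporter of the plasma membrane, Prkaa2, a catalytic subunit of the energy sensor AMP-activated kinase, Gdap1, a protein of the mitochondrial outer membrane, and Smarcc1, a core subunit of the SWI/SNF chromatin remodelling complexes. Smarcc1 lay outside the rule for named genes and was chosen after its values were seen. The counts moved with single cells. Without A6 of P0 there were 5 such genes higher and 3 lower in Pou4f1-positive cells, and without E1 of E14.5 there were 15 higher and 2 lower.

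Slc6a8 was detected in 7 of 7 Pou4f1-positive cells, at 3806 in E12.5 F3, 11650 in E13.5 A3, 3396 in E14.5 D8, 2349 in E15.5 B5 and 10718, 8350 and 2581 in P0 A3, C6 and F1. In Pou4f1-negative cells its signal was 11.4 to 170.7, so all 6 were at the floor. The log2 difference was 4.54 ± 1.49 (SE; limma adjusted p = 0.9995 over 5 and 4 samples), and it was 4.25, 4.09, 3.55 and 4.94 within E12.5, E14.5, E15.5 and P0. The value was of similar size at each stage. It was also 4.54 without A6 of P0, which could not differ, since every Pou4f1-negative cell lay at the floor. Both of its probe sets gave a difference above 1.

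Prkaa2 was detected in the same 7 of 7 Pou4f1-positive cells, at 2131 to 8063 with a median of 3974. In the 6 Pou4f1-negative cells its signal ran from 5.7 to 29.6, so all lay at the floor. The difference was 4.33 ± 1.48 (SE; limma adjusted p = 0.9995), and within the 4 stages it lay between 3.41 at E12.5 and 4.42 at E15.5. Of its 3 probe sets, 2 differed by less than 1, so the gap rests on the brightest.

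Gdap1 ran from 926 to 8787 with a median of 3672 in Pou4f1-positive cells, and P0 C6 was the only one of them below 1000. In Pou4f1-negative cells its highest signal was 282.9, in F6 of E12.5, the cell with the highest Pou4f1 signal of that class, and the other 5 were at the floor. The difference was 4.18 ± 1.48 (SE; limma adjusted p = 0.9995). Within stages it was 4.05, 5.46, 3.80 and 3.47 from E12.5 to P0, and 3 of its 4 probe sets differed by less than 1. Smarcc1 was dimmer, with 4 of 7 Pou4f1-positive cells detected (568 to 3500, median 1858) and a highest Pou4f1-negative signal of 518.4, in E1 of E14.5 (difference 2.74 ± 1.42, limma adjusted p = 0.9995).

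**Figure D2:**
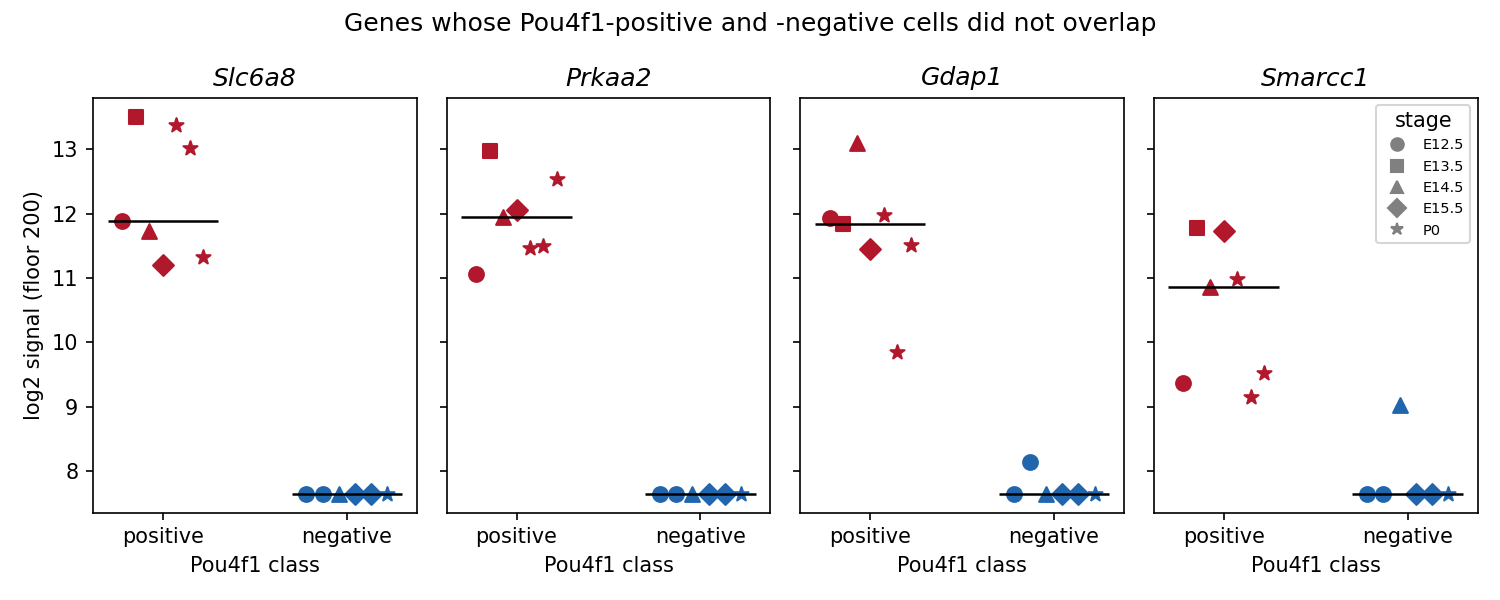
Log2 signal (vertical axis, floor of 200) of Slc6a8, Prkaa2, Gdap1 and Smarcc1 in each ganglion cell, Pou4f1-positive cells in red on the left and Pou4f1-negative cells in blue on the right of each panel. Symbols give the stage and horizontal lines the class median. All blue points of Slc6a8 and Prkaa2 sit at the floor of 7.64, and no red point of any panel lies below a blue one.

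The promoters of these genes are shown because no other genes separated the classes. RefSeq entries (GRCm38.p6) were found for Prkaa2 and Smarcc1. The 250 bases upstream of each annotated start, on chr4:105109899-105110148 (minus strand) for Prkaa2 and chr9:110131774-110132023 (plus strand) for Smarcc1, are printed 5′ to 3′ in the direction of transcription. Neither holds ATTAAT, the core of the site bound by Brn3 proteins, so no letters are in capitals.
Prkaa2: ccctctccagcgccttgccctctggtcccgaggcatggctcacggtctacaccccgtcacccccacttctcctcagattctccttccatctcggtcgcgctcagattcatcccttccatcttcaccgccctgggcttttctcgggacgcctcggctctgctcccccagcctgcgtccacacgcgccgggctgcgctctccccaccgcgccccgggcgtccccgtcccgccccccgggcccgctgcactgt
Smarcc1: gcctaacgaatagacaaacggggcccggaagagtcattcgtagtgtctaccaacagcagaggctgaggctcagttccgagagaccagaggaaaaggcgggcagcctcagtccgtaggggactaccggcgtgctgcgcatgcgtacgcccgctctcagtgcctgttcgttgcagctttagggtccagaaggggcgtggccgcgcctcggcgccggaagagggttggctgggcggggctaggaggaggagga
ATTAAT is its own reverse complement, so both strands were searched at once. It occurred in 4.39% of the upstream windows of 32851 promoters, and the longer form ATNATTAAT, on either strand, which contains it, in 0.935%. Among the 12 genes named below with the largest differences upward, 10 had an entry and 0 held either motif, and among the 12 downward, 9 had an entry and 0 held either motif. These genes had 14 and 11 promoters. For so few, 0 was the likeliest count at the shares over all promoters, so the counts decide nothing. Binding was not tested.

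Genes with the same sign of difference at all 4 stages were more numerous. There were 285 such genes higher in Pou4f1-positive cells (5.07%) and 156 lower (2.77%), and without A6 of P0, over the 3 remaining stages, there were 459 and 467. The 12 with the largest differences upward comprised Slc6a8, Prkaa2 and Gdap1 and 9 others between 3.54 and 4.01, each with an SE between 1.30 and 1.48. They were Rpp30, a subunit of ribonuclease P, Ptpro, a receptor-type tyrosine phosphatase, Ddx25, a DEAD-box RNA helicase, Sun1, an inner nuclear membrane protein, Elp5, a subunit of the Elongator complex, Rrp1, a ribosomal RNA processing factor, Ric8a, a chaperone of G protein alpha subunits, Cmas, which activates sialic acid, and Tcf12, a bHLH transcription factor. Rpp30 was detected in 6 of 7 Pou4f1-positive cells (median 5814) and 0 of 6 Pou4f1-negative cells, whose highest signal was 221.0. Ddx25 and Sun1 showed the same pattern, each detected in 6 of 7 Pou4f1-positive cells (medians 4244 and 2190) and 0 of 6 Pou4f1-negative cells. For Rpp30, Ptpro and Sun1, 1 of 2 probe sets differed by less than 1, and for Ric8a 2 of 4 did. Tcf12 was detected in 5 of 7 and 0 of 6, but 4 of its 5 probe sets differed by less than 1. Cmas and Ric8a overlapped, each being detected in 7 of 7 Pou4f1-positive and 3 of 6 Pou4f1-negative cells.

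The 12 genes with the largest differences downward lay between -4.11 and -3.05, with SEs between 1.19 and 1.48. Ttll1, a subunit of a tubulin polyglutamylase, was detected in 3 of 7 Pou4f1-positive cells (median at the floor, highest 5413) and 6 of 6 Pou4f1-negative cells (2925 to 29856, median 9219). Its difference of -4.11 ± 1.47 (SE; limma adjusted p = 0.9995) ran from -1.58 at E12.5 to -6.64 at E15.5. Idh3g, a subunit of mitochondrial isocitrate dehydrogenase, and Creb3, a membrane-bound bZIP factor, were likewise detected in 6 of 6 Pou4f1-negative cells, but also in 6 and 4 of the 7 Pou4f1-positive cells. Of the 4 probe sets of Creb3, only 2 had this sign. Slit1, a secreted ligand of the Robo axon guidance receptors, was detected in 1 of 7 Pou4f1-positive cells (highest 1369) and 4 of 6 Pou4f1-negative cells (median 4880, highest 12597). Its difference was -4.48, -0.38, -2.99 and -4.20 within E12.5, E14.5, E15.5 and P0 (overall -3.08 ± 1.36, limma adjusted p = 0.9995). The others were Dennd5b, a DENN-domain protein of membrane traffic, Hnrnph3, an RNA-binding protein, Cd99l2, a cell surface protein, Impact, a regulator of translation, Vamp4, a vesicle SNARE, Echs1, a mitochondrial fatty acid enzyme, S100pbp and 2410006H16Rik. Of the 4 probe sets of Dennd5b, only 1 had a difference below 0 and 3 differed by less than 1. For Impact and for Vamp4, 2 of 3 probe sets had this sign and 2 differed by less than 1. For S100pbp, 1 of 2 had this sign and 1 differed by less than 1. In none of the 12 genes did the classes separate.

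The transcription factors that act with or beside Pou4f1 did not divide the cells as it did. Of 17 tested members of a list of 37 measured ganglion cell factors, 9 had a difference above 0 and 8 below, 0 passed, and 1 had the same sign at all stages. Their median difference was 0.14, against 0.17 over all tested genes. Isl1, the LIM-homeodomain partner of Pou4f2, was detected in 4 of 7 Pou4f1-positive cells and 6 of 6 Pou4f1-negative cells. Its signal in Pou4f1-positive cells was 28.3 at the lowest (E13.5 A3), 3030 at the median and 40604 at the highest, against 5410, 12486 and 67555 in Pou4f1-negative cells. The 3 Pou4f1-positive cells below 1000 were E13.5 A3 and, at P0, A3 (56.2) and F1 (974.4). The difference was -2.09 ± 1.13 (SE; limma adjusted p = 0.9995) and -2.12 without A6 of P0. Without E13.5 A3 it was -1.11, and with that cell classed by the other Pou4f1 probe set it was 0.09. Within stages it was -0.06, -1.49, 0.35 and -3.26 from E12.5 to P0, so the sign was not shared.

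Pou4f3 was detected in 2 of 7 Pou4f1-positive cells, E12.5 F3 (2559) and E14.5 D8, and 0 of 6 Pou4f1-negative cells, whose highest signal was 271.0. Isl2, a LIM factor of ganglion cells that project to the opposite side of the brain, was detected in F3 of E12.5 alone (2975). Ebf3, a helix-loop-helix factor of differentiating ganglion cells, was detected in 7 of 7 and 6 of 6 cells with a difference of 0.14 ± 0.65. Ebf2 was detected in 2 of 7 Pou4f1-positive cells (highest 4812) and 0 of 6 Pou4f1-negative cells, and Ebf1 in 3 of 7 and 3 of 6. The Iroquois factors were scattered over both classes, with Irx2 detected in 3 of 7 and 3 of 6 cells, Irx3 and Irx5 each in 2 of 7 and 2 of 6, and Irx6 in 3 of 7 and 1 of 6. Onecut2, which is shared with horizontal cells, was detected in 3 of 7 and 4 of 6 cells. Thus several of these factors varied from cell to cell within each class.

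At P0, 5 of the 37 measured factors of the list were detected in every Pou4f1-positive cell and not in the Pou4f1-negative cell. They were Sox4 and Sox12 of the SoxC group, with log2 differences at P0 of 7.24 and 3.91, and 3 further factors that were detected at fewer stages. Rxrg, a retinoid X receptor, Satb1, a chromatin organiser, and Bcl11b, a zinc finger factor, had log2 differences at P0 of 4.44, 5.27 and 4.05. At E15.5 the difference of Bcl11b was -3.30, through Pou4f1-negative cell C7 (19465), and that of Satb1 was -2.39. Over all stages Rxrg, Satb1 and Bcl11b stood at 0.38, -0.16 and -0.02. The comparison at P0 sets 3 cells against 1 and has no test. The Pou4f1-negative cell A6 had 2314 detected genes, fewer than A3 (3508), C6 (3102) and F1 (4379). Eomes of the same list had the reverse pattern (46203 in A6, at most 61.8 in the other P0 cells), and Onecut2 had a P0 difference of -4.92. The share of all genes with the pattern of the 5 factors was not counted, nor were all factors with the reverse pattern. The median P0 difference over all tested genes was 1.07, against 0.00 at each other stage, so values of P0 are to be read relative to it.

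**Figure D3:**
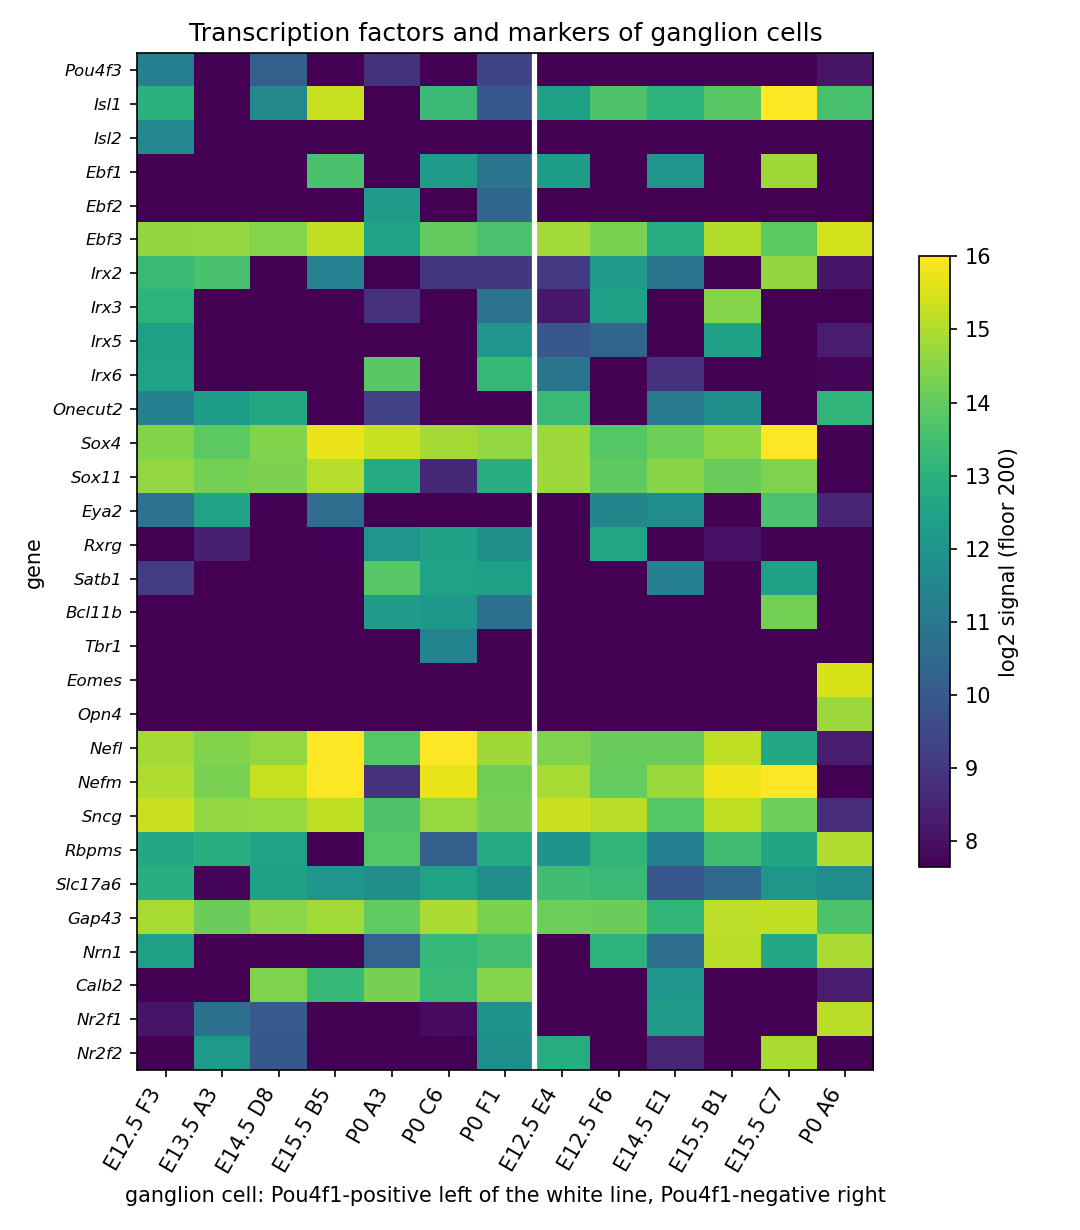
Log2 signal (colour, floor of 200) of transcription factors and markers (rows) in each ganglion cell (columns), Pou4f1-positive cells left of the white line and Pou4f1-negative cells right of it, by stage within each class. Ebf3 is bright in all 13 columns, Isl1 is dark in 2 columns left of the line and in none right of it, and Eomes and Opn4 are bright in P0 A6 alone.

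The general ganglion cell programme was present in both classes. Of 15 tested markers, 10 had a difference above 0 and 5 below, 0 passed and 3 were higher in Pou4f1-positive cells at all 4 stages (Nefl, Sncg and S100a10), with a median difference of 0.23. Over all tested genes 55.6% were above 0 and 5.07% were higher at all 4 stages. Tubb3, a neuronal tubulin, Stmn2, a microtubule regulator of growing axons, Uchl1, a neuronal ubiquitin hydrolase, Gap43, a growth cone protein, and Ina, a neuronal intermediate filament, were detected in all 13 cells. Their differences lay between -0.14 and 0.51, each smaller than its SE, which was at most 0.67. Snap25, a SNARE of synaptic vesicles, was also detected in every cell, with a median signal of 32978 in Pou4f1-positive and 20705 in Pou4f1-negative cells. Pax6, the homeobox factor retained by ganglion cells, differed by -0.11 ± 0.68.

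The neurofilament light chain Nefl had a higher stage mean in Pou4f1-positive cells at all 4 stages, by far the most at P0. Its signal was 14230 to 80383 in Pou4f1-positive cells with a median of 28775. In Pou4f1-negative cells it was 21329 and 17655 at E12.5, 17565 at E14.5, 37604 and 6396 at E15.5 and 314.2 in A6 of P0. The difference of 2.39 ± 0.75 (SE; limma adjusted p = 0.9995) was 0.62, 0.55, 2.37 and 6.62 within E12.5, E14.5, E15.5 and P0, and 0.94 ± 0.54 without A6.

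The same cell set the values of further genes. Sncg, gamma-synuclein, stood at 415.3 in A6, against 14204 to 41475 in the other Pou4f1-negative cells, and its difference was 1.71 ± 0.73 with A6 and 0.25 without it. For Nefm, the medium neurofilament chain, the difference was 1.47 with A6 and -0.40 without. For Sox4 and its relative Sox11, which act in newborn neurons, it was 1.83 and 1.25 with A6 and 0.11 and -0.44 without. Of the 8 probe sets of Sox4 and the 6 of Sox11, 6 and 4 differed by less than 1. S100a10, a small protein of the S100 family, rested on another cell. Its difference of 1.91 ± 0.77 was 1.76 without A6 but 0.98 ± 0.64 without the Pou4f1-negative cell C7 of E15.5 (signal 5.8), and it was 0.55, 1.87, 4.22 and 1.29 within the 4 stages.

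Some genes known to depend on Brn3 factors in mouse sensory neurons or retina were listed, including Nefl, Nefm, Sncg, Gap43, Snap25 and Ablim1. Of 10 tested, 8 had a difference above 0 and 2 below, and 0 passed. Their median was 0.85, and 0.48 without A6, against 0.17 and 0.07 over all tested genes. This list shares Nefl, Nefm, Sncg and Gap43 with the marker list, so the pair of lists is not independent. Ablim1, an actin-binding protein, differed by 1.31 ± 1.39 and had the same sign at all stages, but 3 of its 4 probe sets differed by less than 1. Without A6 its difference was 0.34 ± 1.32. Gal, the neuropeptide galanin, was detected in 4 of 7 Pou4f1-positive and 2 of 6 Pou4f1-negative cells, with a difference of 0.00. Shh, the secreted morphogen released by ganglion cells, was detected in the Pou4f1-negative cell E4 of E12.5 alone (17771, against 57.3 at most elsewhere).

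**Figure D4:**
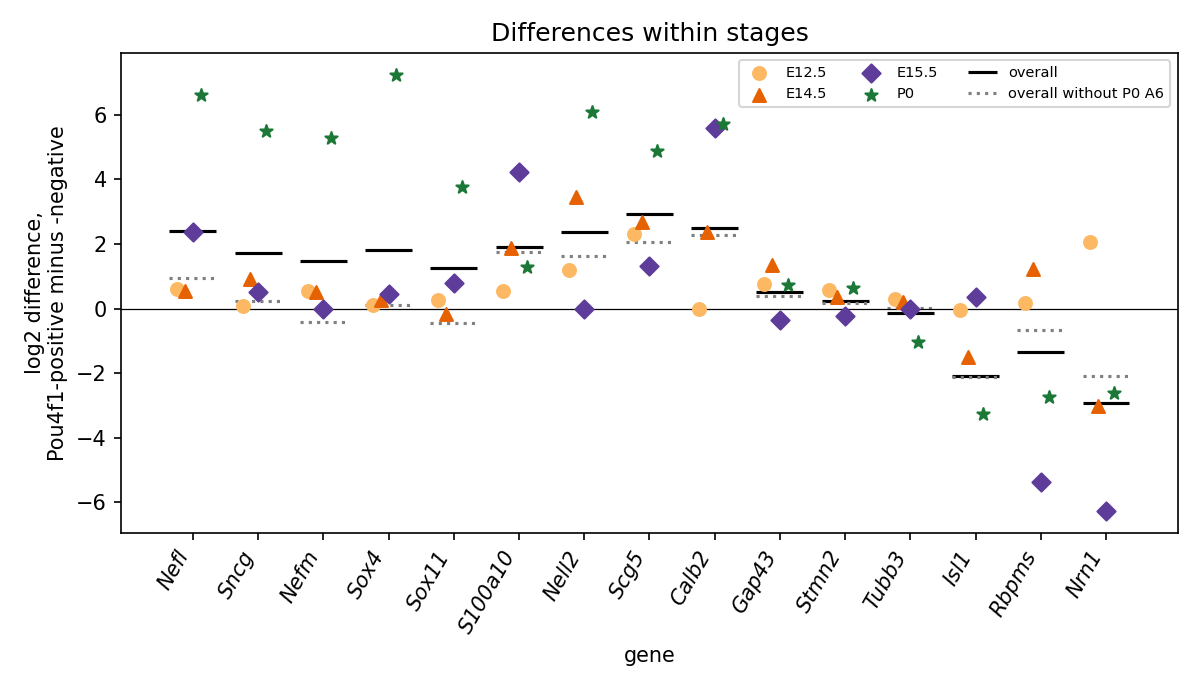
Log2 difference, Pou4f1-positive minus Pou4f1-negative (vertical axis), of 15 ganglion cell genes within each of the 4 stages that hold both classes (symbols), over all samples (black line) and without P0 A6 (dotted line). The P0 stars of Nefl, Sncg, Nefm, Sox4 and Sox11 lie far above their other symbols, and their dotted lines are nearer to 0 than the black ones.

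Calretinin (Calb2), a calcium-binding protein of a subset of ganglion and amacrine cells, differed in how many cells had it. It was detected in 5 of 7 Pou4f1-positive cells and 1 of 6 Pou4f1-negative cells. In Pou4f1-positive cells it was at 11.2 at E12.5, 70.6 at E13.5, 21210 at E14.5 and 9717 at E15.5, and at 20079, 10132 and 22980 at P0. In Pou4f1-negative cells it was at 192.5 and 13.2 at E12.5, 4109 at E14.5, 179.5 and 128.0 at E15.5 and 314.5 at P0. Every Pou4f1-positive cell from E14.5 on was above every Pou4f1-negative cell, while neither class reached 1000 at E12.5. That starting stage was chosen after the values were seen, and the share of all genes with such a pattern was not counted. Over all 13 cells the classes overlapped, and the difference within E12.5 was 0.0. The difference over all stages was 2.49 ± 1.49 (SE; limma adjusted p = 0.9995) and 2.29 without A6.

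Meis2, a homeobox factor used in the amacrine marker list, was detected in 4 of 7 Pou4f1-positive and 0 of 6 Pou4f1-negative cells (highest 251.4), with a difference of 2.67 ± 1.33. The amacrine list as a whole had 1 to 4 of 15 genes detected in Pou4f1-positive cells and 1 to 3 in Pou4f1-negative cells, with summed signals of 15568 to 47715 and 16678 to 42344. Its genes Tfap2a, Tfap2b and Gad1 lay below 1000 throughout, as given above. The part of other cell types in the Meis2 values was not tested.

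Over the synaptic list, 14 of 20 tested genes had a difference above 0 and 6 below, where 55.6% of all tested genes were above 0. None passed, and the median was 0.48, and 0.30 without A6, against 0.17 and 0.07 over all tested genes. Syt1 and Syt4, synaptotagmins of secretory vesicles, were detected in 7 of 7 Pou4f1-positive cells each and in 3 and 4 of 6 Pou4f1-negative cells. Syt4 had a median of 14092 in Pou4f1-positive and 3737 in Pou4f1-negative cells and differed by 2.04 ± 1.13, and by 2.94 ± 1.17 without A6 of P0 (limma adjusted p = 0.9994). Scg5, a chaperone of peptide processing, was detected in 7 of 7 and 3 of 6 cells and differed by 2.93 ± 1.27 (limma adjusted p = 0.9995), with 2.30, 2.69, 1.33 and 4.88 within the 4 stages. Nell2, a secreted glycoprotein of ganglion cells, was detected in 7 of 7 and 3 of 6 cells, with a difference of 2.37 ± 1.42 over all stages, of -0.02 at E15.5 and of 1.56 without C7 of E15.5. Sv2a, a vesicle glycoprotein outside the rule for named genes and chosen after its values were seen, and the granin Scg3 had differences of -1.46 and -0.69. They were detected in 4 of 7 and 5 of 7 Pou4f1-positive cells and 5 of 6 and 6 of 6 Pou4f1-negative cells. The difference of Scg3 was -0.69, 1.38, -6.36 and 1.31 within the 4 stages, so the sign was not shared. It was 0.38 without B5 of E15.5 and -1.52 without A6. The classes also differed in detected genes, by 3129 against 2586.5 at the median, and the part of this in such counts was not tested; with detected genes as a covariate in the fit over single cells, the median over all genes was 0.07, against 0.25 without that covariate.

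Axon genes showed little that followed the split. Of 30 tested genes of axon growth and guidance, 17 had a difference above 0 and 13 below, 0 passed, and the median was 0.10, and -0.05 without A6. Dcx, a microtubule-associated protein of young neurons, differed by 1.53, with the same sign at all stages (limma adjusted p = 0.9995), and by 0.74 ± 0.67 without A6. Chl1, a cell adhesion molecule, was detected in 1 of 7 Pou4f1-positive and 3 of 6 Pou4f1-negative cells and differed by -2.50 ± 1.28, and by -1.44 ± 1.07 without A6 of P0. Of its 4 probe sets, only 1 had this sign and 3 differed by less than 1. Nrn1, a neurite growth factor, was detected in 4 of 7 and 5 of 6 cells with a difference of -2.93 ± 1.45 (limma adjusted p = 0.9995), but of 2.06 at E12.5 and -6.27 at E15.5.

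A few progenitor genes were detected in Pou4f1-negative cells. Fgf15, a growth factor of retinal progenitors, was detected in 0 of 7 Pou4f1-positive cells (highest 396.6) and 3 of 6 Pou4f1-negative cells. Those were E4 (6604) and F6 (4628) of E12.5 and E1 of E14.5 (15139). The difference was -2.56 ± 1.23 (limma adjusted p = 0.9995). Ccnd1, cyclin D1, was detected in 3 of 7 and 5 of 6 cells with a difference of -1.79 ± 1.42, which was -3.29 without A6 of P0 and -1.05 without E1 of E14.5. Mcm7, a subunit of the replicative helicase, had the opposite sign (1.87 ± 1.49), with 4 of 7 Pou4f1-positive and 1 of 6 Pou4f1-negative cells detected (without E1 of E14.5, 0 of 5 Pou4f1-negative cells). Over the whole list of progenitor and cell cycle genes, Pou4f1-positive cells had 1 to 10 of 22 detected and summed signals of 4677 to 130958, and Pou4f1-negative cells 1 to 16 and 3644 to 175008. The 9 tested genes had a median of -0.27, with 4 above 0 and 5 below, and a median of -1.01 without A6. The embryonic globin Hbb-y, detected in cells of E14.5 and E15.5 of both classes, differed by -0.80 ± 1.43, by -2.09 without A6 and by -0.03 without E1.

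The single Pou4f1-negative cell of P0 had bright genes that stayed undetected in the other 12 ganglion cells, as did each other cell. In C7 of E15.5 such genes were brighter still, with Coa7 at 65480.5, Gdpd2 at 59342.5 and Tpm2 at 50043. The 10 brightest of these genes in A6 were chosen after their values were seen and have no test. They included Eomes at 46203, against 146.0 or less in the other 12 cells, and Opn4 at 27842, against 182.9 or less. Eomes, also called Tbr2, is a T-box factor known to be required for the melanopsin ganglion cells of the mouse, and Opn4 is melanopsin itself. The others were Igf1, a secreted growth factor (45400), Synpr, a synaptic vesicle protein (43851), Rgs4, a regulator of G protein signalling (38052), Gna14, a G protein alpha subunit of the Gq class (35362), Ryr1, an intracellular calcium channel (32991), Mylip (29629), Atp7a, a copper transporter (24217), and Tctn3 (23845). In all, 163 genes were detected in A6 and in none of the other 12, which was 7.04% of its 2314 detected genes. The share was 8.53% in E1 of E14.5, the only cell above A6, and 3.73% to 5.56% in the remaining cells.

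Several genes that A6 lacked were detected in every Pou4f1-positive P0 cell. Sox4 was 40087, 30284 and 25451 in A3, C6 and F1, against 207.3 in A6. Nefl was 14230, 71600 and 28775, against 314.2, and Calb2 was 20079, 10132 and 22980, against 314.5. In the other direction Nr2f1, a nuclear receptor of the COUP-TF family, was 53.7, 236.1 and 3823 in the Pou4f1-positive cells, against 36275 in A6. The Pou4f1-positive P0 cells were not alike in every gene. Their lowest signals of Sox11 and Nefm, at 392.0 and 454.9, were undetected, and of these cells only C6 had Isl1 detected. A6 kept other ganglion cell genes, with Ebf3 at 44340, Isl1 at 12088, Rbpms, which binds RNA and marks ganglion cells, at 32506, and Nrn1 at 31571. Among Pou4f1-positive P0 cells, Tbr1, a T-box relative of Eomes, was detected in C6 alone (2752), and Cartpt, a neuropeptide precursor of some ganglion cell subtypes, at 4658 in A3 alone.

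**Figure D5:**
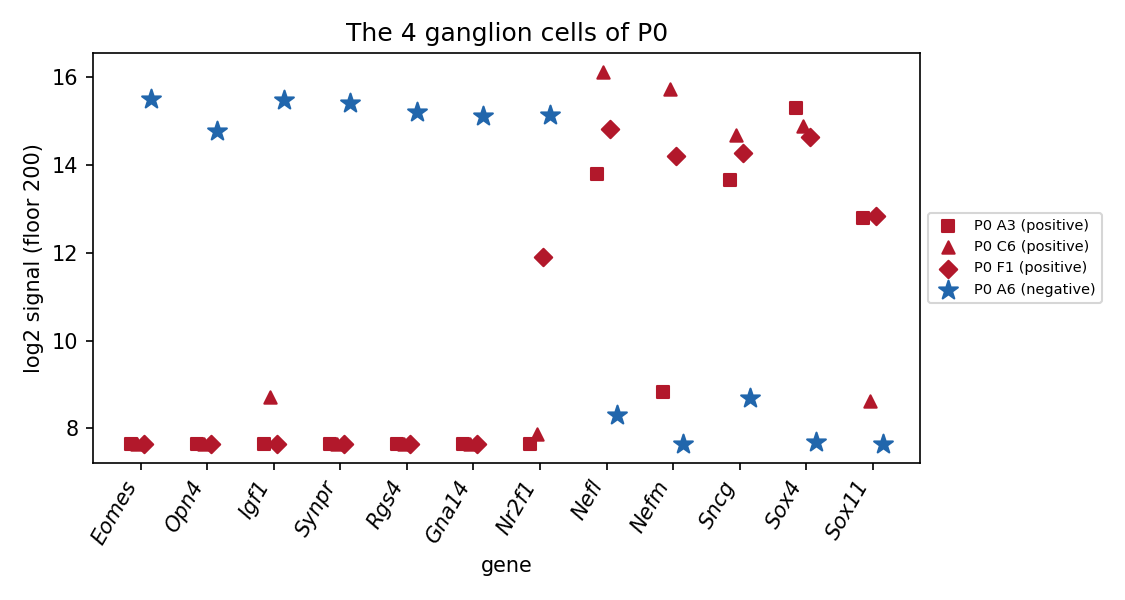
Log2 signal (vertical axis, floor of 200) of 12 genes in the 4 ganglion cells of P0, the 3 Pou4f1-positive cells in red and the Pou4f1-negative cell A6 in blue. A6 is far above the red points for Eomes to Nr2f1 and at or near the floor for Nefl to Sox11, where it lies below the red points.

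Rank correlations between cells across the tested genes were low within and between the classes. The Spearman correlation across the tested genes had a median of 0.295 over the 21 pairs of Pou4f1-positive cells, 0.218 over the 15 pairs of Pou4f1-negative cells and 0.262 over the 42 mixed pairs. For pairs of different stages alone the medians were 0.282, 0.218 and 0.259. For pairs of the same stage they were 0.386 over 3 pairs, 0.270 over 2 and 0.271 over 8, so the Pou4f1-negative and mixed pairs were level there. These are correlations across genes, which are not independent replicates, and pairs share cells, so no p is given. The highest Spearman value of any pair was 0.421, between Pou4f1-positive cells of different stages. These values use floored signals, where genes at the floor tie. The Pearson correlation of linear signals without a floor, over all probe sets, was 0.536 to 0.923 over the 78 pairs, with a median of 0.729.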

How the data were processed

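The deposited values are intensity signals from the authors' MAS5 processing, per the labels, linear and with 1 array per cell. No detection calls were used. Of 45101 probe sets, 34958 had 1 gene symbol in the platform annotation, 932 several and 9211 none, and 64 were controls. Of those with 1 symbol, 34754 were matched to RefSeq by gene number. Each of 18194 genes was read from its brightest probe set, by mean log2 signal across the 13 ganglion cells. A gene was tested if its signal reached 1000 in at least 3 of the 13 cells, and Pou4f1 was left out of counts. Log2 values (floor 200) of the cells of a stage and class were averaged, giving 5 Pou4f1-positive and 4 Pou4f1-negative samples. These were compared in limma 3.58.1 under R 4.3.3 by lmFit and trended eBayes on 7 residual degrees of freedom, with Benjamini-Hochberg adjustment at 0.05. The prior degrees of freedom were infinite, so each SE came from the trend. The script was tested on simulated data.

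Named genes were the 12 largest differences per direction with the same sign at every stage with both classes, the tested transcription factors and markers of ganglion cells, and up to 4 tested genes of each other list. The members and the 18 lists were chosen with earlier results of these data known. Alternatives covered the floor, scaling, probe set rule, filter, Pou4f1 threshold and probe set, stage as a block, cells as units, gene-wise variances, and leaving out each cell or stage. The number of arrays limits the precision. Other lists, whose genes were also counted, covered subtype markers, ion channels, neuropeptides, neurogenic genes, horizontal, photoreceptor, glial, vascular, lens, stress and housekeeping genes.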

Additional observations from a re-analysis of the deposited data

Results flagged for a closer look

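Within each class, single stage means of log2 signal stood far from the others for 39 combinations of a named gene and a class, by Dixon's test on groups of 4 or 5 stage means. Chance alone flags about 1 in 20 groups, and groups whose other values lie at the floor of 7.64 are flagged by any value above it. The means at P0 rest on 3 Pou4f1-positive cells or on A6 alone, and all flags are values without an explanation.

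Among Pou4f1-positive cells, P0 was above the other stages for Dennd5b (9.76, others at 7.64), Cd99l2 (12.87, others up to 8.55), Impact (11.59, others up to 7.68), 2410006H16Rik (8.94, others at 7.64) and S100pbp (10.10, others at 7.64). It was also above them for Rxrg (12.08, others up to 8.39), Satb1 (12.91, others up to 9.11), Bcl11b (11.69), Chl1 (9.31) and Gria1 (9.69), with all others of these 3 at 7.64, and for Map1b (10.26, others up to 7.89). P0 was below the other stages for Sox11 (11.42, others from 14.24). At E12.5, cell F3 was above the others for Irx3 (13.03, others up to 9.11) and Septin4 (13.06, others up to 8.92). At E13.5, cell A3 was above the others for Hnrnph3 (10.71, others up to 7.75) and Vamp4 (13.13, others up to 8.56), and below them for Slc17a6, a vesicular glutamate transporter (7.80, others from 12), and for Pgk1, a glycolytic enzyme (8.92, others from 13.35). At E14.5, cell D8 was above the others for Fgf15 (8.63, others at 7.64). At E15.5, cell B5 was above the others for Nefl (16.29, others up to 14.91) and Ina (14.82, others up to 14.46), and at the floor for Rbpms (7.64, others from 12.25).

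Among Pou4f1-negative cells, A6 of P0 was below the other stages for Sox4 (7.70, others from 14.16), Sox11 (7.64, others from 14.25), Irx2 (8.15, others from 10.64) and Nefl (8.30, others from 13.92). Cell E1 of E14.5 was above the others for Calb2 (12, others up to 8.30), Mcm7, a subunit of the replicative helicase (12.44, others up to 8.33), Btg2, an antiproliferative gene of newborn neurons (11.65), Adcyap1, the neuropeptide PACAP (11.06), Cryaa, a lens crystallin (15.09), Meis2 (7.97), Sun1 (7.92) and Tcf12 (7.89), with the others at 7.64 for all 6 of the last. At E12.5 the mean was above the others for Gdap1 (7.89, others at 7.64), Rxrg (10.13, others up to 7.85) and Scn8a, a sodium channel (10.37, others at 7.64). At E15.5 it was above the others for Rpp30 (7.72) and Bcl11b (10.95), with the others at 7.64.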

How the results depend on the processing

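No gene passed at an adjusted p under 0.05 in 31 of the 32 alternatives, and 3 genes passed with gene-wise variances in limma (Prkaa2, adjusted p = 0.0272, Gdap1, 0.035, and Slc6a8, 0.0389). The Pou4f1-negative class of these 3 lay at or near the floor, which left it little or no spread in that fit. Leaving out each of the 13 cells in turn gave 0 to 0 passing genes and 114 to 159 genes at an unadjusted p under 0.05, against 146 with all cells. The 32 alternatives gave 100 to 283 such genes. The count reached 283 without a filter (lowest adjusted p = 0.0748) and with cells as units and stage as a block (0.104), and was 219 with stage as a block over the averaged samples (0.628). No paired analysis was possible because the labels give cell names and no replicate numbers that pair cells across the classes; stage was the only block that could be used. The median difference over all tested genes was 0.17, and 0.07 without A6 of P0, 0.37 without E1 of E14.5, 0.39 without E14.5 and 0.05 without P0. Of 103 named genes, 61 kept their sign under every alternative in which they were tested and 42 did not, and the cause was not tested. Medians of the lists ranged from 0.38 to 1.60 for the genes reported to depend on Brn3 factors, from 0.08 to 0.62 for the markers and from -0.12 to 0.49 for the transcription factors. Genes that overlapped no cell of the other class numbered 18 upward and 9 downward without A6 and E1 together, a setting chosen after seeing the data, as was the split by the other Pou4f1 probe set (0 passing genes, 182 at an unadjusted p under 0.05). Under that split Slc6a8, Prkaa2 and Gdap1 differed by 3.03, 3.02 and 3.37. With 1 array per cell and a floor of 200, differences below the floor could not be measured.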

Other observations

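Lists not described above gave no passing gene. Among voltage-gated ion channels, Kcnab2, an auxiliary potassium channel subunit, was detected in 4 of 7 Pou4f1-positive cells (highest 3589) and 0 of 6 Pou4f1-negative cells (highest 296.7), with a log2 difference of 1.58 ± 1.11 and no difference at E15.5. The 6 tested channel genes had a median of 0.21, and 0.40 without A6. The 5 tested neuropeptide and granin genes had a median of 0.00 and the 10 tested neurogenic genes a median of 0.01, which was -0.26 without A6. The 5 tested subtype markers had a median of 0.53, and -0.26 without A6 of P0. The 4 tested amacrine genes had 0.63 (0.41 without A6), the 2 horizontal cell genes -0.15 (0.02), the 2 glial genes 0.52 (-0.31) and the 2 vascular, blood and immune genes -0.78 (-1.86). The single tested lens gene, Cryaa, had 0.55, the 6 stress genes 0.05 (0.53 without A6) and the 11 housekeeping genes -0.02, while 0 photoreceptor and bipolar genes were tested.

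Among glutamate receptors, Gria1, an AMPA receptor subunit, was detected in 1 of 7 Pou4f1-positive cells (highest 14157) and 3 of 6 Pou4f1-negative cells (median 2130), with a difference of -2.08 ± 1.23, and of -1.10 ± 1.04 without A6 of P0. Ptn, the growth factor pleiotrophin, was detected in 6 of 7 and 3 of 6 cells, with a difference of 2.05 ± 1.46 and values above 0 at all 4 stages, and 1.23 without B1 of E15.5. Cplx2, a complexin of the release machinery, was detected in 3 of 7 Pou4f1-positive cells (highest 24503) and 0 of 6 Pou4f1-negative cells (highest 812.2). None of the 3 passed in limma, where every adjusted p was 0.9995.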
